A study of Homo sapiens with 8 samples.

Results

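The 10 genes MYC, MYCN, MYCL, MAX, MXD1, MXD3, MXD4, MXI1, MNT and MLX encode the core of the MYC, MAX and MXD transcription factor network, and they were taken by symbol from the deposited expression table. All 10 symbols were found among 26443 rows with values. 9 of them had a mean of at least 1 FPKM (fragments scaled to gene length and library size) over the 8 libraries and were tested, and MYCN was listed at 0 in every library. The cells were C4-2B, a castration-resistant human prostate cancer line derived from LNCaP, kept in RPMI with serum and treated for 7 days. 2 libraries each came from cells given ENZ at 10 uM, EPZ6438 (EPZ) at 1 uM, both agents (Combination, for which the labels give no separate doses) or the vehicle DMSO. ENZ commonly stands for enzalutamide, an antiandrogen used in prostate cancer. EPZ6438, known as tazemetostat, inhibits EZH2, a histone methyltransferase that silences genes. All groups are the same cell line, and the labels do not say whether replicates were separate cultures, so the spread behind each p-value is that between 2 libraries and may be technical.

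MYC, MYCN and MYCL are activators that bind DNA only as dimers with MAX, at the E-box sequence CACGTG. MXD1, MXI1, MXD3, MXD4 and MNT also pair with MAX and occupy the same sites, but they recruit SIN3 corepressors with histone deacetylases, so the balance between them and MYC sets the output of shared targets. MLX is a MAX-like partner that joins the network to the glucose-sensing factors MondoA and ChREBP. In prostate cancer MYC is frequently amplified and drives ribosome production, nucleotide synthesis and proliferation, while MXD genes are generally raised as cells differentiate or leave the cell cycle.

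The upstream windows of the 9 members other than MYC were read from RefSeq (GRCh38.p14), each spanning the 250 bases before an annotated transcription start. All windows of MAX, MYCL and MXD1 lie inside the annotated gene, so the bases before its outermost start were not searched. The bases after the windows of MYCN and MXD3, and after a window of MAX, were not found in a transcript. A lack of a match therefore holds for the windows read and not for every promoter of a member. The E-box word CACGTG, which is its own reverse complement, was found in the windows of 3 members, MXD4, MNT and MLX. It occurs in 6.34% of 35116 such windows, counted over all annotated starts, and in at least 1 window of 11.8% of the 8787 tested genes that have one. The 4 E2F words TTTCCCGC, TTTGGCGC, TTTCGCGC and TTTGCCGC, searched on both strands, occur in 2.79% of windows. Among the members they were found in the window of MYCN only, where a pair of overlapping matches lies. The 3 windows are shown because they place the network's own binding word in front of its members. Of these, MXD4 rose, MLX fell and MNT did not pass in Combination against DMSO (0.050, adjusted p = 0.524 for MNT). MXD3 fell and MXD1 rose there without a match in the windows read. The 3 windows are written 5′ to 3′ on the strand of the gene, with the E-box in capitals. A match is a description of the sequence, not evidence of binding.
MXD4, minus strand, chr4:2262110-2262359: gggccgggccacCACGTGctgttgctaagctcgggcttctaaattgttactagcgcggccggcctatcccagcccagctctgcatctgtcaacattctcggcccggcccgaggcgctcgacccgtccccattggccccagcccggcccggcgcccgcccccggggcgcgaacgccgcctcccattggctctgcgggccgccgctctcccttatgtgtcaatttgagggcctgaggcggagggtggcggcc
MNT, minus strand, chr17:2401061-2401310: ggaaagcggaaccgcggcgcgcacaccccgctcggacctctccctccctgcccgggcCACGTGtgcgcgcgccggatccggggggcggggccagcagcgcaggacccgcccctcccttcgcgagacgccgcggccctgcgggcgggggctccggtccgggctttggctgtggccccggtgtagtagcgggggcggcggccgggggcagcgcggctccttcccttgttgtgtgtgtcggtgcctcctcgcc
MLX, plus strand, chr17:42566850-42567099: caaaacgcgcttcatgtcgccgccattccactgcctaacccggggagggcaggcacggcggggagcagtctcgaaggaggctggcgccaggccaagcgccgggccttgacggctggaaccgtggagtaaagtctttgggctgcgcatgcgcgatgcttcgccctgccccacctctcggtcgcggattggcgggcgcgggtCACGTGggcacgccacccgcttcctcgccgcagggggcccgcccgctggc
The word begins 238 bases before the start of MXD4, 193 bases before that of MNT and 50 bases before that of MLX.

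The FPKM steps of low genes put the depth at about 15400000 to 24400000 fragments per library. On that scale, and with the exonic lengths of GENCODE release 29, MYC rested on about 880 to 5100 fragments in a library, MXD4 on 2600 to 6600 and MLX on 1300 to 3600. The least covered tested members were MXD1, at about 130 to 390 fragments, and MYCL, at 160 to 250. The luminal prostate markers KLK3, KLK2, FOLH1, KRT8, KRT18 and HOXB13 were all expressed in each group. Markers of basal cells summed to at most 0.184 FPKM in any library, those of endothelial cells to at most 0.857 and those of neuroendocrine cells to at most 1.33. Of 4 stromal markers 3 had a mean under 1 FPKM, and COL1A1 averaged 3.91 FPKM with ENZ, 2.84 with EPZ, 10.5 in Combination and 2.33 in DMSO. Of 3 immune markers PTPRC was at or near 0, and CD3E was listed at 0 in every library, as was the stromal marker COL1A2. Such a listed 0 does not show that a gene was not expressed, as given below for EIF4A1. The macrophage and lysosome gene CD68 made up nearly all of the immune sum. That sum was 6.46 to 6.92 FPKM with ENZ, 10.3 in each library with EPZ, 11.02 to 12.09 in Combination and 7.06 to 7.38 in DMSO. KLK3, the androgen-induced gene that encodes PSA, averaged 224 FPKM with ENZ, 2801 with EPZ, 392 in Combination and 996 in DMSO. In bulk RNA, fewer cells of a type and less RNA per cell cannot be told apart, and the part of these shifts in the members' values was not tested.

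MYC was the most abundant member in ENZ, EPZ and DMSO cells, and it fell with ENZ and much further in Combination. The gene lies on chromosome 8 at 127735434 to 127741434 (GRCh38, plus strand), and no other annotated gene shares its exons. It stood at 43.4 and 42.0 FPKM with ENZ, 70.0 and 70.0 with EPZ, 18.9 and 18.0 in Combination, and 76.5 and 75.0 in DMSO. The libraries of each treatment lay below both DMSO libraries, narrowly so for EPZ. Differences here and below are on the log2(FPKM + 1) scale, which understates changes of low genes, from a limma fit over 11874 genes with Benjamini-Hochberg adjustment. MYC fell by 0.81 with ENZ (SE 0.053, adjusted p = 2.59e-06) and by 1.98 in Combination (SE 0.053, adjusted p = 8.57e-10), both against DMSO. The Combination mean was 24.4% of the DMSO mean. With EPZ the difference was -0.11 (95% interval -0.23 to 0.0075, adjusted p = 0.10), and it did not pass. It passed when only EPZ and DMSO entered the fit (adjusted p = 0.0396), and its sign turned after quantile normalization (0.043, adjusted p = 0.527).

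The fall of MYC in Combination was larger than the single-agent differences added together. Added to ENZ, EPZ lowered MYC by a further 1.17 (SE 0.053, adjusted p = 5.80e-08), whereas alone it had left MYC close to its DMSO level. Added to EPZ, ENZ lowered MYC by 1.87 (SE 0.053, adjusted p = 4.47e-09). The sum of the single-agent differences would have put MYC at 39.4 FPKM in Combination, against 18.4 ± 0.666 FPKM observed (SD, n = 2). This departure, the interaction of the 2 agents (Combination minus ENZ minus EPZ plus DMSO), was -1.06 (95% interval -1.22 to -0.89, adjusted p = 8.90e-06). All 5 comparisons and the interaction share libraries and are not independent of each other.

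**Figure D1:**
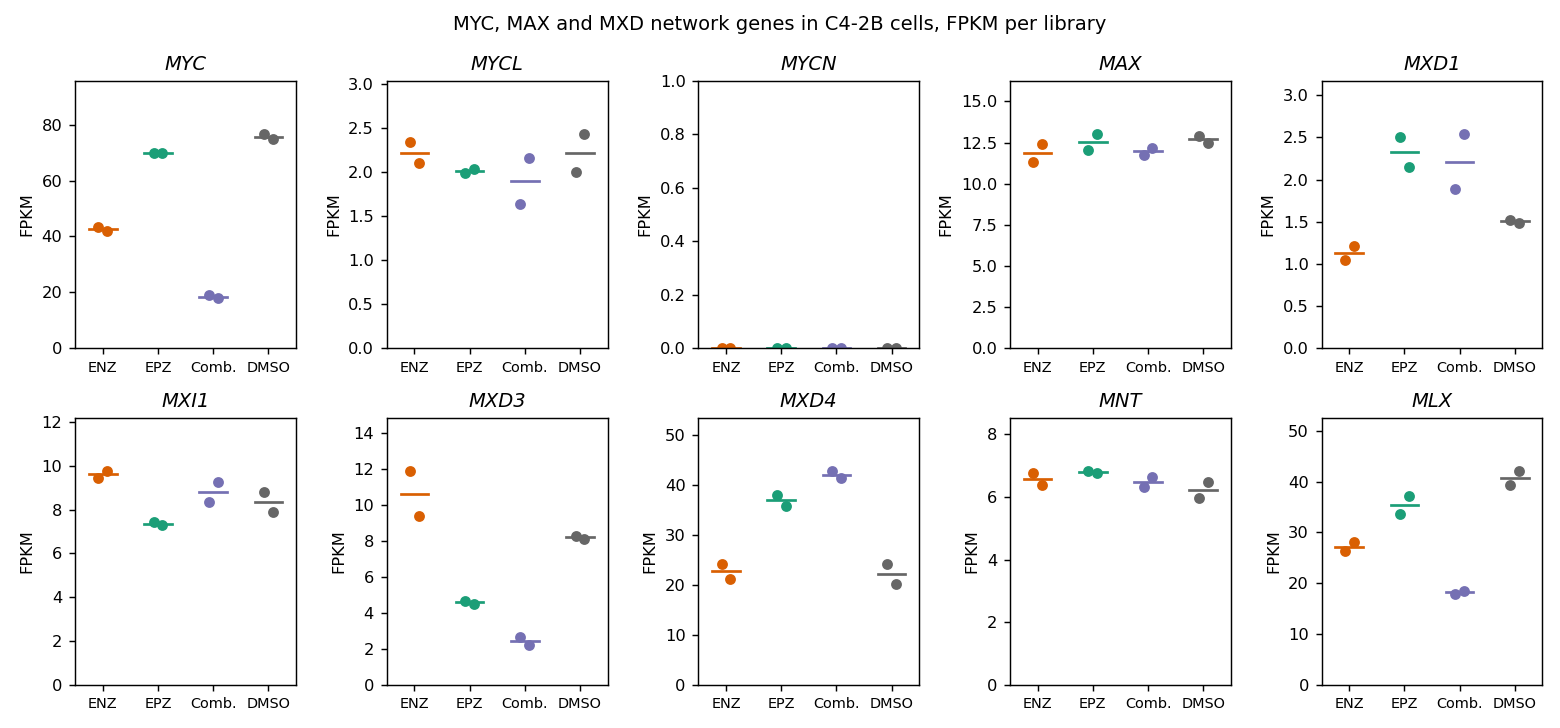
FPKM of each of the 10 members (y axes, each from 0) in the 8 libraries, grouped as ENZ, EPZ, Combination (Comb.) and DMSO on the x axes. Points are libraries and bars are group means of 2. MYC is lowest in Combination, at 18.9 and 18.0 FPKM, MXD4 is highest there, at 42.8 and 41.3 FPKM, and MAX and MNT stay within narrow ranges.

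Of the other MYC family genes, MYCL was low and MYCN was listed at 0. MYCL, first described as an amplified gene of lung cancer, stood at 2.34 and 2.10 FPKM with ENZ, 1.99 and 2.04 with EPZ, 1.63 and 2.16 in Combination, and 2.00 and 2.43 in DMSO. The groups overlapped, and no comparison passed (adjusted p = 0.224 to 0.977 over the 6 comparisons), although Combination was lower than DMSO after quantile normalization (-0.42, adjusted p = 0.00624). MYCN, a driver of neuroendocrine prostate cancer, was listed at 0 in all 8 libraries, as was its antisense gene MYCNOS, and no fold was computed. The translation factor gene EIF4A1, which cells in general use, was also listed at 0 in all 8 libraries, so a listed 0 in this table does not show that a gene was not expressed.

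MAX, the obligate partner, was steady. It stood at 11.3 and 12.4 FPKM with ENZ, 12.1 and 13.0 with EPZ, 11.7 and 12.2 in Combination, and 12.9 and 12.5 in DMSO. The ENZ and Combination libraries lay just below both DMSO libraries, and its highest library exceeded its lowest by a factor of 1.15. The difference between Combination and DMSO was -0.078 (95% interval -0.23 to 0.076, adjusted p = 0.313), and no other comparison passed either. The scaling of the libraries matters at this size: after median-of-ratios scaling the same difference was 0.087, and Combination was higher than ENZ by 0.19 (adjusted p = 0.0246), or by 0.23 after quantile normalization (adjusted p = 0.00983).

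Among the MAX-binding repressors, MXD4 rose with EPZ and in Combination but not with ENZ. MXD4 stood at 24.2 and 21.2 FPKM with ENZ, 38.0 and 35.8 with EPZ, 42.8 and 41.3 in Combination, and 24.2 and 20.2 in DMSO. Both libraries with EPZ and both of Combination lay above all ENZ and DMSO libraries. The increase was 0.71 with EPZ (SE 0.090, adjusted p = 1.49e-04) and 0.90 in Combination (SE 0.090, adjusted p = 7.29e-06), and the ENZ difference was 0.032 (95% interval -0.17 to 0.24). Combination exceeded ENZ by 0.86 (SE 0.090, adjusted p = 1.67e-05). Combination against EPZ was 0.18 and did not pass (adjusted p = 0.0906), but it passed after both rescalings, at 0.30 and 0.61, and with only these groups in the fit (adjusted p = 0.0142). With the replicate block its adjusted p was 0.0268.

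MXD3 moved the other way, and its highest library exceeded its lowest by a factor of 5.31, against 4.26 for MYC. MXD3, the MXD gene expressed in dividing cells, stood at 11.9 and 9.38 FPKM with ENZ, 4.68 and 4.51 with EPZ, 2.64 and 2.24 in Combination, and 8.29 and 8.14 in DMSO. The ENZ libraries lay above DMSO and differed most from each other, while those of EPZ and Combination lay below. MXD3 fell by 0.72 with EPZ (SE 0.10, adjusted p = 3.29e-04) and by 1.42 in Combination (SE 0.10, adjusted p = 6.67e-07). Combination was lower than ENZ by 1.75 (adjusted p = 3.42e-07) and lower than EPZ by 0.70 (adjusted p = 1.76e-04), so the change that EPZ brought was larger in the presence of ENZ, with an interaction of -1.03 (95% interval -1.36 to -0.70, adjusted p = 5.26e-04). The rise with ENZ, 0.33 (adjusted p = 0.0220), was not stable: without the first ENZ library it was 0.17 (adjusted p = 0.136), and leaving out either DMSO library also ended the call (adjusted p = 0.0660 and 0.0811), as did testing genes of any level or quantile normalization (adjusted p = 0.0767 and 0.0747).

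MXD3 shares sequence with its neighbours on chromosome 5, which bears on how its reads were counted. Of its 5154 exonic bases, 22.5% also belong to PRELID1 on the opposite strand and 18% to RAB24 on the same strand. PRELID1, a mitochondrial lipid transfer gene, averaged 32.1 FPKM with ENZ, 36.4 with EPZ, 12.6 in Combination and 60.3 in DMSO, and RAB24 averaged 21.5, 18.7, 26.7 and 15.7 FPKM in the same order. PRELID1 fell by 0.89 with ENZ, 0.71 with EPZ and 2.17 in Combination (adjusted p at most 5.04e-05). RAB24 rose by 0.43 with ENZ, 0.24 with EPZ and 0.73 in Combination (adjusted p at most 0.0228). No source used here says whether reads were counted by strand, and the part of these neighbours in the MXD3 values was not tested.

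MXD1 rose with EPZ and in Combination, from a low level, and MXI1 passed in 1 comparison. MXD1 shares 3.73% of its exonic bases with SNRNP27 on the same strand, a gene that averaged 14.2 FPKM over the 8 libraries. SNRNP27 fell by 0.28 with EPZ and by 0.68 in Combination (adjusted p at most 0.00277). The part of SNRNP27 in the MXD1 values was not tested. MXD1, induced during myeloid and epithelial differentiation, stood at 1.04 and 1.22 FPKM with ENZ, 2.51 and 2.15 with EPZ, 1.88 and 2.54 in Combination, and 1.52 and 1.48 in DMSO. The EPZ and Combination libraries lay above those of ENZ and DMSO. The rise over DMSO was 0.41 with EPZ (SE 0.12, adjusted p = 0.0133) and 0.35 in Combination (SE 0.12, adjusted p = 0.0171), and Combination exceeded ENZ by 0.58 (adjusted p = 0.00122). Quantile normalization ended the first of these (0.28, adjusted p = 0.0780) and the second (0.057, adjusted p = 0.674). The EPZ rise also lost its call without the first EPZ library (0.33, adjusted p = 0.102) or the second DMSO library (adjusted p = 0.0552), and the Combination rise without the second Combination library (0.20, adjusted p = 0.156) or the second DMSO library (adjusted p = 0.0628).

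MXI1, also called MXD2, stood at 9.44 and 9.75 FPKM with ENZ, 7.43 and 7.28 with EPZ, 8.36 and 9.27 in Combination, and 8.81 and 7.89 in DMSO. ENZ libraries were the highest and EPZ libraries the lowest. Neither passed against DMSO, at 0.18 with ENZ (adjusted p = 0.0627) and -0.16 with EPZ (adjusted p = 0.0964). Combination exceeded EPZ by 0.23 (SE 0.075, adjusted p = 0.0190), a call that ended without either EPZ library (adjusted p = 0.0594 and 0.0900) or without the second Combination library (adjusted p = 0.145). Against DMSO, Combination was at 0.071 as deposited (adjusted p = 0.404) and passed after median-of-ratios scaling (0.23, adjusted p = 0.0138) and quantile normalization (0.19, adjusted p = 0.0383).

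MNT, the broadly expressed repressor that partners MAX in most cells, was as steady as MAX. It stood at 6.76 and 6.39 FPKM with ENZ, 6.83 and 6.78 with EPZ, 6.31 and 6.65 in Combination, and 5.99 and 6.47 in DMSO. Both EPZ libraries lay above DMSO, and the other groups overlapped it. No comparison passed (adjusted p = 0.20 to 0.827 over the 6 comparisons). The difference between Combination and DMSO was 0.050 (95% interval -0.11 to 0.21), and it passed after median-of-ratios scaling (0.20, adjusted p = 0.0195).

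MLX followed MYC. It stood at 26.3 and 28.0 FPKM with ENZ, 33.7 and 37.1 with EPZ, 18.0 and 18.4 in Combination, and 39.4 and 42.1 in DMSO. All treated libraries lay below both DMSO libraries. MLX fell by 0.57 with ENZ (SE 0.067, adjusted p = 9.83e-05) and by 1.12 in Combination (SE 0.067, adjusted p = 1.62e-07). Combination was lower than ENZ by 0.55 (adjusted p = 4.99e-05) and lower than EPZ by 0.92 (adjusted p = 1.17e-06). With EPZ it fell by 0.20 (adjusted p = 0.0312), which did not pass after median-of-ratios scaling (-0.14, adjusted p = 0.0846) or quantile normalization (-0.043, adjusted p = 0.611), or without the first EPZ library or either DMSO library (adjusted p = 0.0505 to 0.236). The interaction was -0.35 (95% interval -0.57 to -0.14, adjusted p = 0.0153). It ended without the first DMSO library (adjusted p = 0.0680), the second EPZ library (adjusted p = 0.0748) or the first Combination library (adjusted p = 0.0514), and after either rescaling (adjusted p = 0.0793 and 0.0736).

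MLX shares 18.1% of its 4259 exonic bases with PSMC3IP, a meiotic recombination cofactor gene on the opposite strand. PSMC3IP averaged 7.70 FPKM with ENZ, 5.03 with EPZ, 1.61 in Combination and 9.81 in DMSO, a lower level than MLX in every group. Its part in the MLX values was not tested. Over the 8 libraries MLX and MYC correlated at r = 0.983 on the log2(FPKM + 1) scale, a description of 8 points that fall into 4 groups.

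**Figure D2:**
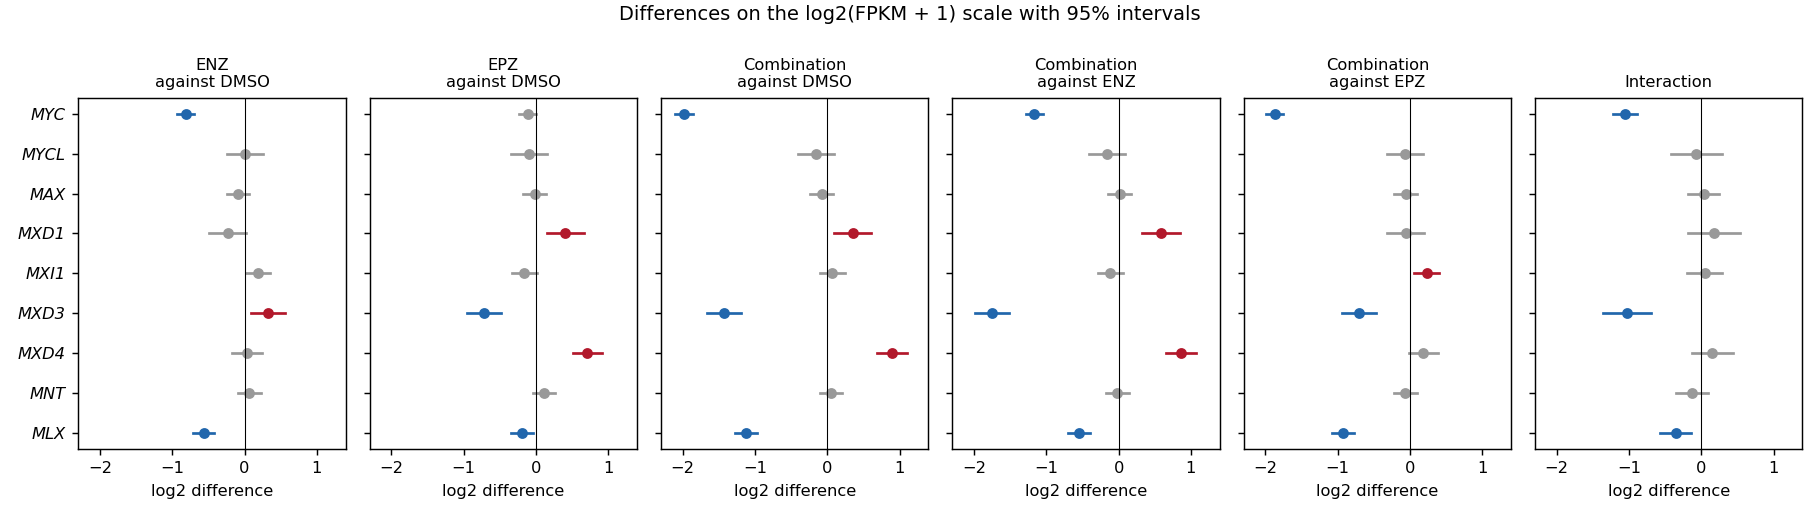
Differences on the log2(FPKM + 1) scale for the 9 tested members (rows) in the 5 comparisons and the interaction (panels), as points with 95% intervals. Red marks higher and blue lower at an adjusted p under 0.05, and grey marks genes that did not pass. MYC, MXD3 and MLX are blue in all 3 panels that set Combination against another group and in the interaction, and MXD4 is red for EPZ and Combination against DMSO.

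Counted over the members, ENZ changed 3 of 9 against DMSO, with 1 higher and 2 lower, where it changed 56.7% of all tested genes (27.9% higher, 28.8% lower). EPZ changed 4 of 9, with 2 higher and 2 lower, where it changed 55.8% of all tested genes (23.4% higher, 32.4% lower). Combination changed 5 of 9 against DMSO, with 2 higher and 3 lower, where the background was 80.8% (33.3% higher, 47.4% lower). Against ENZ it had the same counts, over a background of 70.8% (25.3% higher, 45.5% lower). Against EPZ it changed 4 of 9, with 1 higher and 3 lower, over a background of 72.8% (29.2% higher, 43.7% lower). The interaction had 3 of 9, all lower, over a background of 39.6% (9.99% higher, 29.6% lower). In each comparison the members' share was below that of all tested genes, so being called set no member apart. Rescaling evened the direction of the background: after median-of-ratios scaling 51.2% of the called genes were higher in Combination against ENZ, where 35.7% were as deposited, and for the interaction the values were 44.3% and 25.2%. The median difference of the 9 members in Combination against DMSO was -0.078, and that of all tested genes was -0.15. Median-of-ratios scaling brought that of all tested genes to 0.0024, a shift larger than the MAX and MNT differences, at -0.078 and 0.050, and far smaller than that of MYC.

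The order of the members by level changed in Combination. In DMSO it ran MYC at 75.7 FPKM, MLX at 40.7, MXD4 at 22.2, MAX at 12.7, MXI1 at 8.35, MXD3 at 8.21, MNT at 6.23, MYCL at 2.22 and MXD1 at 1.5, and MXI1 and MXD3 overlapped. ENZ cells kept MYC, MLX and MXD4 in the first places, and in EPZ cells MXD4 and MLX overlapped behind MYC. In Combination MXD4 led at 42.1 FPKM, ahead of MYC at 18.4 and MLX at 18.2, which overlapped, and at the low end MXD1 overlapped both MXD3 above it and MYCL below it.

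Set against its MXD antagonists, MYC fell well below their summed level in Combination. FPKM are scaled by gene length, so the levels of different genes may be put in a ratio, although no source used here gives the lengths the authors applied. The ratio of MYC to the summed FPKM of MXD1, MXI1, MXD3 and MXD4 was 0.932 and 1.01 with ENZ, 1.33 and 1.41 with EPZ, 0.340 and 0.324 in Combination, and 1.79 and 1.99 in DMSO. The 4 groups did not overlap, and these values carry no test. The MXD sum itself was 44.1 ± 3.53 FPKM with ENZ, 51.2 ± 2.09 with EPZ, 55.5 ± 0.175 in Combination and 40.3 ± 3.64 in DMSO (SD, n = 2). With ENZ the lower ratio came with a lower MYC and a sum that overlapped DMSO. With EPZ it came with a higher sum and with a MYC mean of 70.0 FPKM against 75.7 in DMSO, a difference that did not pass.

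MXD4 dominated the sum and more so with EPZ. It made up 51.9% and 51.1% of the MXD sum with ENZ, 72.2% and 72% with EPZ, 76.8% and 74.6% in Combination, and 56.5% and 53.6% in DMSO. MXD3 made up 25.6% and 22.6% with ENZ, 8.88% and 9.06% with EPZ, 4.75% and 4.05% in Combination, and 19.3% and 21.6% in DMSO. Without MXD4 in the sum the mean log2 ratio was 1.00 with ENZ, 2.29 with EPZ, 0.45 in Combination and 2.07 in DMSO, so the EPZ ratio then lay above that of DMSO, while Combination stayed lowest. MYC exceeded MNT by a factor of 6.42 and 6.57 with ENZ, 10.3 and 10.3 with EPZ, 3.0 and 2.70 in Combination, and 12.8 and 11.6 in DMSO.

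**Figure D3:**
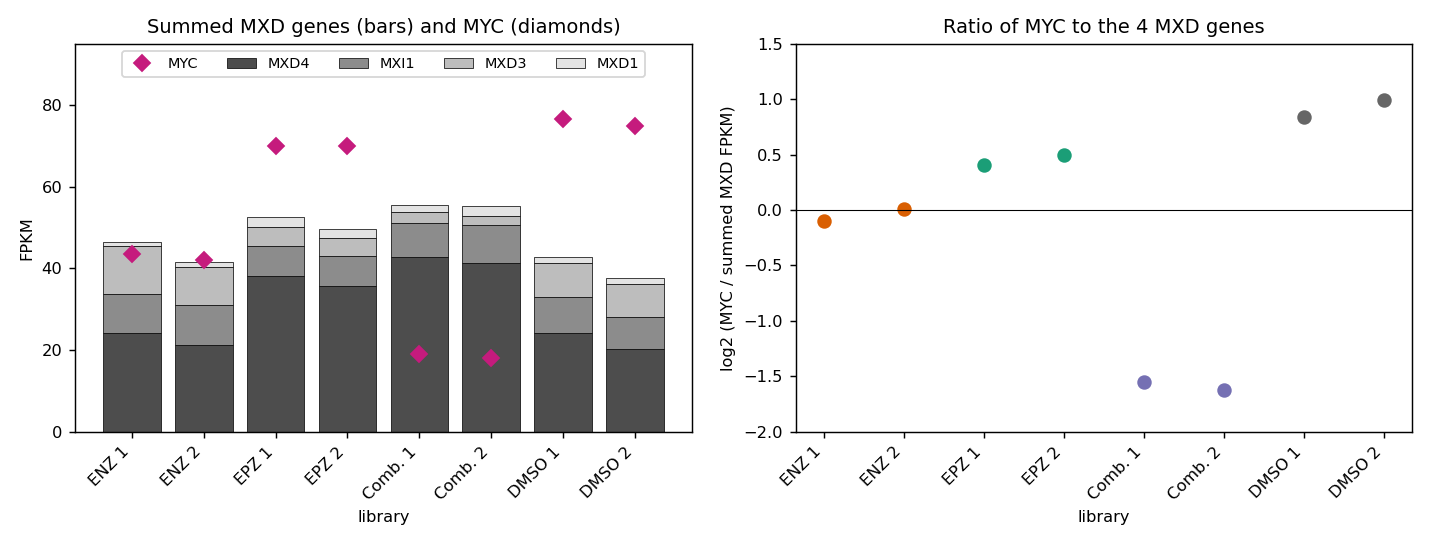
Left, stacked bars of MXD4, MXI1, MXD3 and MXD1 FPKM (y axis) with MYC as diamonds in each library (x axis); right, the log2 ratio of MYC to the summed MXD genes (y axis) in the same libraries. MYC lies at or near the top of the bars with ENZ, above them with EPZ and in DMSO, and far inside them in Combination, at ratios of 0.340 and 0.324.

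Genes that MYC is known to induce fell with both agents, and together they fell most. The list of 50 holds genes of ribosome production, nucleotide and polyamine synthesis and glycolysis, written from general knowledge, and 48 were tested. ENZ lowered 42 (87.5%) and raised none, where 28.8% of all tested genes were lower. The list's median of -0.56 stood against 0.0049 over all tested genes. EPZ lowered 46 (95.8%) and raised 1, where 32.4% of all tested genes were lower. The median of -0.56 stood against -0.046 over all tested genes, although MYC itself did not pass. Combination lowered 47 (97.9%) and raised none, where 47.4% of all tested genes were lower (median -1.91, against -0.15 over all tested genes). The remaining gene, named after its value was seen, was UBTF, which encodes a factor of RNA polymerase I, at 0.036 (adjusted p = 0.568). Combination was lower than ENZ for 47 genes and lower than EPZ for 47 (97.9% each), where 45.5% and 43.7% of all tested genes were lower. UBTF was higher in Combination than with EPZ by 0.22 (adjusted p = 0.00469). The interaction was called negative for 42 (87.5%), where 29.6% of all tested genes were, and 6 were not called. After quantile normalization the medians were -0.36 with ENZ, -0.44 with EPZ and -1.43 in Combination. Of the 45 averaging at least 5 FPKM, 44 were lower in Combination than in DMSO (median -1.93). Of all 8223 genes at that level 4789 were lower (median -0.34).

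The largest decreases on this list differed between the agents. LDHA, the lactate dehydrogenase A gene, stood at 112 and 118 FPKM with ENZ, 167 and 188 with EPZ, 30.6 and 29.8 in Combination, and 241 and 243 in DMSO, a change of -2.96 in Combination (SE 0.064, adjusted p = 3.28e-10). SRM, which encodes spermidine synthase, changed by -1.13 with ENZ and -2.84 in Combination (adjusted p = 1.68e-06 and 5.97e-10). NOP16, a nucleolar gene, fell by 0.87 with ENZ (adjusted p = 1.09e-05). With EPZ the lowest were RCC1, a nuclear transport exchange factor gene, at -1.18, CDC25A, a cell cycle phosphatase gene, at -1.14, and CAD, which starts pyrimidine synthesis, at -0.86 (adjusted p at most 6.71e-06). CDC25A stood at 1.01 and 1.19 FPKM in Combination, against 13.9 and 13.2 in DMSO. LDHA has processed pseudogenes that can share its reads.

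ODC1 was the exception with EPZ. ODC1, the rate-limiting enzyme of polyamine synthesis and a classical MYC target, averaged 205 FPKM with ENZ, 758 with EPZ, 89.1 in Combination and 366 in DMSO. It rose by 1.05 with EPZ (SE 0.060, adjusted p = 1.37e-06). Combination lay below all other groups.

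The E-box word was common upstream of the induced genes. Of the 39 tested ones with a window in the RefSeq table, 15 (38.5%) carried CACGTG in at least 1 window of 250 bases, where 11.8% of 8787 tested genes with a window did. The list was chosen for known MYC targets, many of them defined through their E-boxes, so this share is a description of the list.

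**Figure D4:**
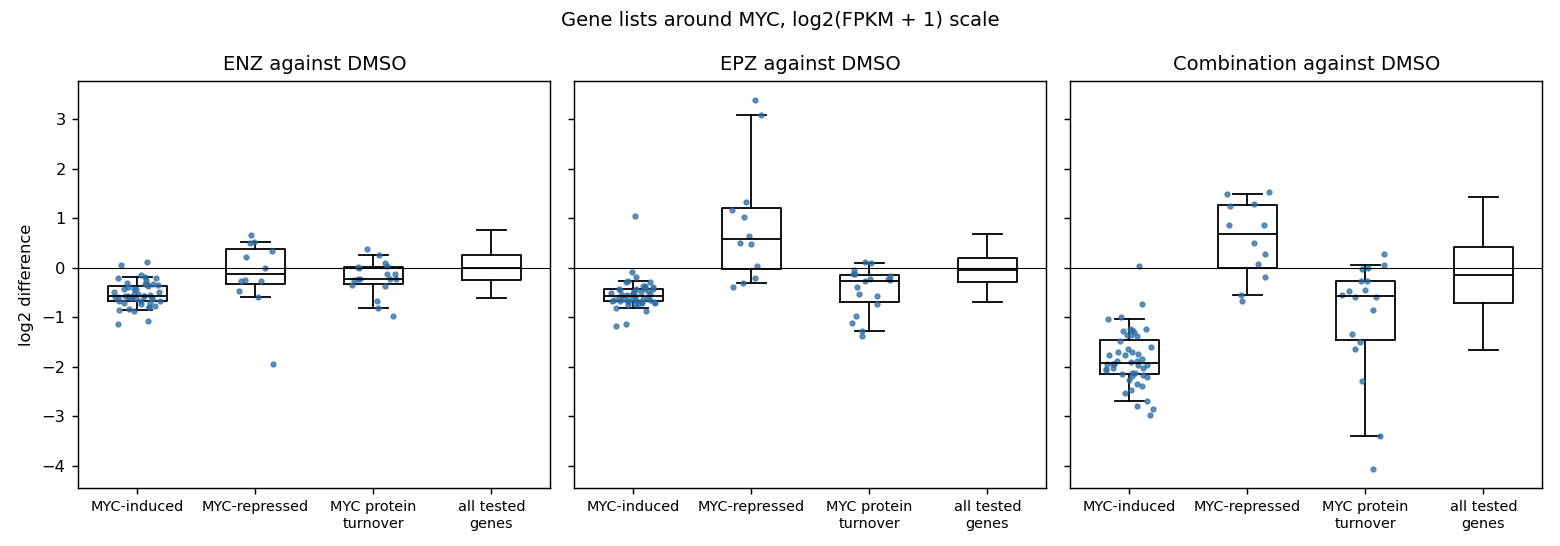
Differences from DMSO on the log2(FPKM + 1) scale (y axis) for ENZ, EPZ and Combination (panels) in 3 gene lists and all tested genes. Points are genes of the lists, boxes span the quartiles with the median as a line, and whiskers run from the 5th to the 95th percentile. The MYC-induced list has medians of -0.56, -0.56 and -1.91 in the 3 panels, while the MYC-repressed list is split with ENZ and lies mostly above 0 with EPZ and in Combination.

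Genes that MYC is known to repress did not mirror this with ENZ. Of 16 on the list 12 were tested. ENZ raised 5 (41.7%) and lowered 6 (50%), where 27.9% of all tested genes were higher and 28.8% lower. EPZ raised 8 (66.7%) and lowered 3, where 23.4% of all were higher, and Combination raised 8 (66.7%) and lowered 3, where 33.3% of all were higher. The medians were -0.11, 0.58 and 0.69, against 0.0049, -0.046 and -0.15 over all tested genes. CLU, the clusterin gene, rose in all 3, by 0.67 with ENZ, 1.34 with EPZ and 1.52 in Combination (adjusted p at most 6.42e-05). THBS1, thrombospondin 1, changed by -1.95 with ENZ, 3.40 with EPZ and 1.49 in Combination (adjusted p at most 1.88e-08). NDRG1, a differentiation-associated gene, stood at 15.6 and 13.8 FPKM with ENZ, 153 and 166 with EPZ, 45.1 and 43.4 in Combination, and 17.9 and 17.9 in DMSO, and rose by 3.09 with EPZ (adjusted p = 7.00e-09). ITGB1, an integrin gene, rose by 0.51 with ENZ (adjusted p = 9.76e-05). CDKN1A, the p21 gene, fell by 0.59 with ENZ (adjusted p = 4.76e-05). The 3 lower genes with EPZ and in Combination were FTH1, CEBPA and CDKN1B, which encode ferritin heavy chain, a differentiation factor and the cell cycle inhibitor p27. After quantile normalization 8 genes were higher and 1 lower with EPZ, and 10 were higher and none lower in Combination, so these lower calls did not all hold. FTH1 fell by 0.67 in Combination (adjusted p = 1.22e-06) and has many pseudogenes that can share its reads.

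The Mondo branch of the network changed around MLX. MLXIPL, which encodes ChREBP, stood at 3.64 and 2.60 FPKM with ENZ, 1.44 and 1.46 with EPZ, 4.29 and 3.86 in Combination, and 1.46 and 1.28 in DMSO. It rose by 0.79 with ENZ (SE 0.12, adjusted p = 4.47e-04) and by 1.10 in Combination (SE 0.12, adjusted p = 1.35e-05). MLXIP, which encodes MondoA, fell by 0.23 with ENZ (adjusted p = 0.00999) and rose by 0.18 in Combination (adjusted p = 0.0191). MGA, a large MAX partner that represses germ cell genes, rose by 0.32 in Combination (adjusted p = 0.00288). Both MLX partners were thus higher in Combination, where MLX was lower. With MGA, 3 of 3 genes were higher there, where 33.3% of all tested genes were higher and 47.4% lower.

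Of 11 genes regulated by MondoA or ChREBP 9 were tested, and they split. With ENZ 4 (44.4%) were higher and 4 lower, where 27.9% of all tested genes were higher and 28.8% lower. With EPZ 5 (55.6%) were higher and 2 lower, where 23.4% and 32.4% of all were, and in Combination 4 (44.4%) were higher and 4 lower, where 33.3% and 47.4% of all were. MLXIPL, described above as a partner, is on this list too and is 1 of the 4 higher with ENZ and in Combination. TXNIP, a MondoA target that restrains glucose uptake and is also on the repressed list, stood at 34.9 and 39.1 FPKM with ENZ, 53.3 and 53.0 with EPZ, 62.4 and 66.5 in Combination, and 25.2 and 26.2 in DMSO. It rose by 1.29 in Combination (SE 0.067, adjusted p = 5.48e-08), and its relative ARRDC3 by 1.47 (adjusted p = 1.60e-07). The related ARRDC4 did not rise there, with means of 2.50 FPKM with ENZ, 4.32 with EPZ, 2.41 in Combination and 2.76 in DMSO. ARRDC4 rose by 0.50 with EPZ (adjusted p = 0.00105). HK2, hexokinase 2, fell by 1.45 with ENZ, 0.35 with EPZ and 2.93 in Combination (adjusted p at most 0.00653). FASN, fatty acid synthase, fell by 1.20 with ENZ and 1.77 in Combination (adjusted p at most 3.93e-06). With EPZ it went the other way, at a mean of 657 FPKM against 543 in DMSO.

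Regulators of MYC protein stability fell more often than they rose. Of 18 tested, 10 (55.6%) were lower and 2 higher with ENZ, where 28.8% of all tested genes were lower. With EPZ 12 (66.7%) were lower and none higher, where 32.4% of all were lower, and in Combination 14 (77.8%) were lower and 1 higher, where 47.4% of all were lower. The medians were -0.22, -0.26 and -0.57, against 0.0049, -0.046 and -0.15 over all tested genes. After quantile normalization 12 were lower and 4 higher in Combination. Of the 15 averaging at least 5 FPKM, 13 were lower in Combination (median -0.59). Of all 8223 genes at that level 4789 were lower (median -0.34). AURKA, a kinase that stabilises MYC proteins, averaged 20.9 FPKM with ENZ, 15.0 with EPZ, 2.63 in Combination and 37.4 in DMSO, a change of -3.40 in Combination (adjusted p = 7.11e-10). PLK1, a mitotic kinase gene, changed by -4.07 in Combination (adjusted p = 9.07e-11), and KIAA1524, which encodes the phosphatase inhibitor CIP2A, by -2.28 (adjusted p = 3.32e-09). TRIM32, a ubiquitin ligase gene, was the tested gene higher in Combination (0.28, adjusted p = 0.00343) and with USP37 was higher with ENZ. FBXO32, also on the list, was not tested, since its mean over the libraries was 0.54 FPKM. It averaged 0.271 FPKM with ENZ, 0.381 with EPZ, 1.37 in Combination and 0.140 in DMSO. SKP2, a ubiquitin ligase subunit gene that acts on MYC, fell by 1.12 with EPZ (adjusted p = 4.50e-06). AURKA, PLK1 and SKP2 are also cell cycle genes. FBXW7, whose product marks MYC for destruction, averaged 2.67 FPKM with ENZ, 2.58 with EPZ, 2.96 in Combination and 2.98 in DMSO and did not pass against DMSO (adjusted p = 0.322, 0.228 and 0.970).

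Most of the called coactivator genes were lower, and called corepressor genes went both ways. Of 16 coactivator genes 10 (62.5%) were lower and 1 higher with ENZ, where 28.8% of all tested genes were lower. With EPZ 9 (56.2%) were lower and none higher, against 32.4% of all lower, and in Combination 11 (68.8%) were lower and 2 higher, against 47.4% of all lower. After quantile normalization 5 were lower and 1 higher with ENZ, and 6 lower and 4 higher in Combination. All 16 averaged at least 5 FPKM, and of the 8223 genes at that level 4789 were lower in Combination. The helicase genes RUVBL1 and RUVBL2, subunits of the TIP60 complex, changed by -1.94 and -1.48 in Combination (adjusted p at most 9.94e-09), and the acetyltransferase genes CREBBP and EP300 by 0.67 and 0.46 (adjusted p at most 1.08e-04). Of 14 corepressor genes 4 (28.6%) were lower and 3 higher with ENZ, a share lower near the 28.8% of all tested genes. With EPZ 8 (57.1%) were lower and 1 (7.14%) higher, where 32.4% of all were lower and 23.4% higher. After quantile normalization 5 were lower and 1 higher with EPZ. In Combination 8 (57.1%) were lower and 5 (35.7%) higher, where 47.4% of all were lower and 33.3% higher. SAP30, a SIN3 complex subunit gene, changed by -1.73, HDAC2, a histone deacetylase gene, by -1.41 and SIN3B by 0.86 in Combination (adjusted p at most 1.39e-05). ARID4B, which encodes another SIN3 subunit, was higher with ENZ, EPZ and in Combination, by 0.24, 0.41 and 0.72 (adjusted p at most 0.0124). The corepressor median in Combination was -0.28, and it turned to 0.18 after quantile normalization, with 7 higher and 5 lower. The coactivator median was -0.35 and then -0.15. Over all genes averaging at least 5 FPKM the median in Combination was -0.34. The coactivator median was thus near that of genes at this level, and the corepressor median was not below it.

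Transcripts beside MYC on chromosome 8 did not all follow it. Of 6 noncoding genes of the region 2 were tested. PCAT1, a prostate cancer associated transcript, averaged 1.13 FPKM with ENZ, 2.01 with EPZ, 0.235 in Combination and 4.93 in DMSO. PCAT1 fell by 1.47 with ENZ, 0.98 with EPZ and 2.26 in Combination (adjusted p at most 8.59e-05). PVT1, the gene next to MYC, averaged 6.48 FPKM with ENZ, 6.26 with EPZ, 5.76 in Combination and 6.24 in DMSO and did not pass (-0.099 in Combination, adjusted p = 0.222).

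Among 10613 tested protein-coding and intergenic noncoding genes, those whose values followed MYC most closely over the 8 libraries were PRDX4 (r = 0.999), EIF3D, PGK1, MPP6 and AKAP1 (r = 0.998 for each). PRDX4, a peroxiredoxin of the endoplasmic reticulum, averaged 88.0 FPKM with ENZ, 147 with EPZ, 37.2 in Combination and 157 in DMSO. For MLX the closest were FAM53C, PAK1IP1 and DPH2 (r = 0.996 to 0.999). For MXD3 they were RECQL4, LIG1 and PECR (r = 0.992 to 0.998), of which RECQL4, a DNA helicase gene, and LIG1, the replicative DNA ligase gene, act in DNA replication. For MXD4 they were MAP3K10, VSTM2L and FAM43A (r = 0.986 to 0.992), and for MXD1 HIST1H2BL, HSH2D and ROR1 (r = 0.979 to 0.982). For MXI1 they were CAMLG, INAFM1 and RNF20 (r = 0.951 to 0.969). The steadier members had looser matches: MAX with TXNL4B, CTRL and SREK1IP1 (r = 0.917 to 0.929), MNT with PTPN23, SLC38A7 and ST3GAL4 (r = 0.882 to 0.916) and MYCL with BTN3A2, SETD9 and HCFC1R1 (r = 0.863 to 0.945). These are descriptions of 8 points in 4 groups, with the highest of many genes taken for each member.

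**Figure D5:**
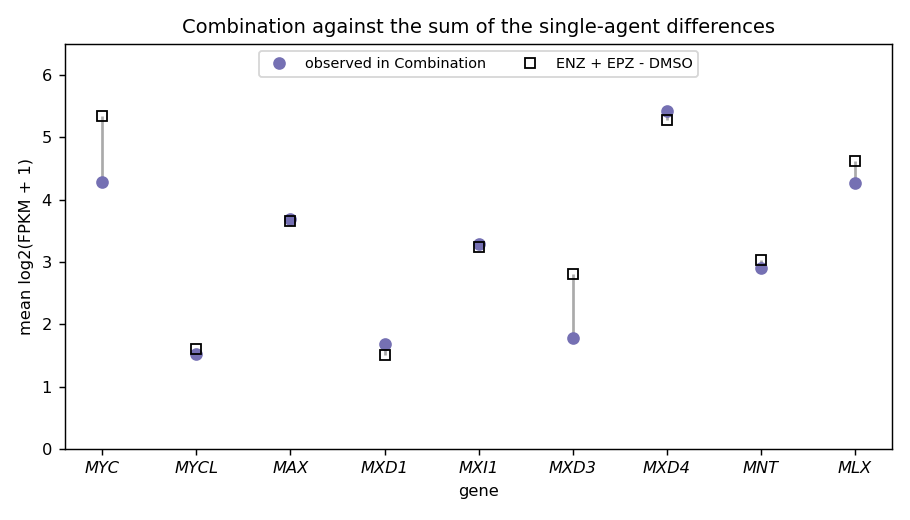
Mean log2(FPKM + 1) (y axis) of the 9 tested members (x axis) as observed in Combination (filled circles) and as the single-agent differences would add up (open squares, ENZ plus EPZ minus DMSO). MYC, MXD3 and MLX lie below their squares, by 1.06, 1.03 and 0.35, and the other 6 members lie close to them.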

How the data were processed

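RNA from 8 C4-2B samples, 2 in each of 4 groups, was sequenced on an Illumina instrument from NEBNext Ultra libraries, per the labels' protocols. The authors deposited FPKM values, 1 column per library. STAR and hg38 are named in the submitters' processing notes. The sources used here give no counting tool, annotation or strand setting. Each column's name is the short name of 1 sample in the labels. Of 26475 rows 32 were blank.

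The deposited FPKM of 11874 genes averaging 1 FPKM or more were taken to log2(FPKM + 1). limma 3.58.1 in R 4.3.3 then estimated the 4 group means (two-sided moderated test, variance trend, 5.47 prior and 4 residual degrees of freedom), with Benjamini-Hochberg adjustment over all tested genes in each of 6 comparisons and a threshold of 0.05. The fit was also run on simulated data in which few genes changed, and only in ENZ. That setting differs from these data, so the run does not vouch for the calls given here. All groups entered it because each has 2 libraries. Fragments came from the FPKM steps of 457 low genes with a single GENCODE transcript and their exonic lengths. The depths are approximate, since 53.2% of these genes gave values within 5% of the median. Tables and figures used Python 3.11.15, pandas 2.3.3, numpy 2.4.6 and matplotlib 3.10.9.

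The members and the 8 gene lists were chosen with earlier results of these data known. Named from a list were up to 3 members in each direction with the largest called difference from DMSO, and a few further genes, such as FBXW7, PVT1 and UBTF, were chosen after their values were seen. Named by likeness were the 5 genes closest to MYC and the 3 closest to each other member. Of the symbols 90.2% are in GENCODE release 29. Alternatives were leaving out each library, the replicate block, only the compared groups, quantile normalization, median-of-ratios scaling, a pseudocount of 0.1, no filter on level and a filter at 5 FPKM.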

Additional observations from a re-analysis of the deposited data

Results flagged for a closer look

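3 members had an effect of EPZ that differed with and without ENZ, by the test of the interaction on the log2(FPKM + 1) scale. The value was -1.06 for MYC (adjusted p = 8.90e-06), -1.03 for MXD3 (adjusted p = 5.26e-04) and -0.35 for MLX (adjusted p = 0.0153). For MYC and MLX both Combination libraries were lower than both ENZ and both EPZ libraries. For MXD3 the 2 Combination libraries, at 2.64 and 2.24 FPKM, were lower than all other libraries. The median interaction over all tested genes was -0.12 as deposited and 0.0032 after median-of-ratios scaling, and after that scaling the call of MLX ended (-0.22, adjusted p = 0.0793).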

How the results depend on the processing

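Of 54 tested member changes 24 were called, and 18 of these stayed called in the same direction under every alternative in which they were tested. None of the 24 changed sign under any alternative. The other 6 were MXD3 with ENZ, MXD1 and MLX with EPZ, MXD1 in Combination against DMSO, MXI1 in Combination against EPZ and the interaction of MLX, whose values stand in the report. The cause of these losses was not tested.

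The count of members higher with ENZ was 0 with no filter and after quantile normalization, and 0 to 1 when each library was left out, and 3 were lower after quantile normalization, MXD1 among them. With EPZ 1 member was higher at a filter of 5 FPKM, where MXD1 is not tested, and after quantile normalization (1 to 2 with a library left out), and 1 was lower with no filter and after both rescalings (1 to 2 with a library left out). With only the compared groups 3 were lower with EPZ, MYC among them. In Combination against DMSO 1 was higher at 5 FPKM, 4 after median-of-ratios scaling and 1 to 2 with a library left out. After quantile normalization 4 were lower there, MYCL among them. Against ENZ 1 was higher at 5 FPKM and 3 after both rescalings, MAX among them. Against EPZ 2 were higher after both rescalings and with only the compared groups, and 0 to 1 with a library left out. For the interaction 1 was higher after quantile normalization, and 2 were lower after both rescalings.

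Differences that changed sign were all small and uncalled as deposited. After median-of-ratios scaling MYCL was at -0.0054 with ENZ, 0.018 in Combination against EPZ and 0.023 for the interaction, and MAX at 0.033 with EPZ, 0.087 in Combination against DMSO and 0.054 against EPZ. Combination was then at 0.061 for MXI1 and 0.15 for MNT against ENZ, and at 0.028 for MXD1 and 0.046 for MNT against EPZ. After quantile normalization MYCL was at -0.19 and MNT at -0.027 with ENZ, and MYC at 0.043 and MAX at 0.049 with EPZ. Combination was then at 0.14 for MAX against DMSO, 0.056 for MXI1 and 0.098 for MNT against ENZ, and 0.096 for MAX against EPZ. With each library left out MYCL ranged from -0.091 to 0.10 with ENZ, -0.19 to 0.0053 with EPZ, -0.19 to 0.068 in Combination against EPZ and -0.20 to 0.064 for the interaction. MAX ranged from -0.067 to 0.031 with EPZ, -0.047 to 0.077 in Combination against ENZ and -0.030 to 0.095 for the interaction. MXD4 with ENZ ranged from -0.093 to 0.16, and MXI1 from -0.00039 to 0.14 in Combination against DMSO and -0.022 to 0.12 for the interaction. MNT in Combination against ENZ ranged from -0.054 to 0.018, and MXD1 against EPZ from -0.20 to 0.090.

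Deviations of same-numbered libraries correlated at -0.0153 to 0.109 between groups, so the numbers were not taken to pair them. With the replicate block MXD4 passed in Combination against EPZ, which made 2 members higher, and no other member call changed. Leaving out a library leaves 1 in its group, which is then assumed to vary like the others. With 2 libraries a group, and about 130 to 390 fragments for MXD1, small differences of the low members were not detectable.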
